A study of Mus musculus with 8 samples.

Results

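Glycolysis genes and genes of the response to low oxygen were compared between neural stem and progenitor cells with and without Prmt5. The set holds 36 genes: 20 for glucose uptake, the glycolytic enzymes and lactate release (Slc2a1 to Slc16a3 in pathway order), 2 for regulators of flux (Pdk1 and Pfkfb3) and 14 for other hypoxia-response genes (Vegfa to Mgarp). They were chosen by gene symbol, with earlier results of this same contrast in view, so their differences between genotypes are given as a description and their adjusted p-values say where they stand in the fit of all genes. Of the 36 genes, 32 had at least 1 probe among the 16562 genes named on the array, with 50 probes in all. Gpi1, Eno1, Ldhb and Ankrd37 were not analysed here, as no probe carried their symbol. A detection filter (detection p under 0.05 on at least 4 of 8 arrays) kept 40 of the 50 probes and 29 of the 32 genes, and left out Pfkfb3, Bnip3 and Car9.

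Embryos at E14.5, from a cross of the C57BL/6 and 129S1/SvlmJ mouse strains, were the source of the cells. Control cells (genotype Prmt5F/F) had both Prmt5 alleles flanked by loxP sites and no Cre recombinase. Prmt5-depleted cells (genotype Prmt5F/FNes) had the same alleles and Cre under Nestin control, which is active in neural progenitors and is inherited by the cells they form. Effects of Cre and of Prmt5 loss cannot be told apart in this design. RNA of each genotype was measured on 4 Illumina MouseRef-8 V2 arrays. Whether these are separate embryos, separate cultures or repeats of 1 culture is not given, and p-values cover only the spread between these samples, which may be technical.

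Glycolysis turns glucose into pyruvate, and its committed steps are catalysed by hexokinase and phosphofructokinase, each encoded by several genes with different tissue distributions. When oxygen is scarce, the prolyl hydroxylases encoded by Egln genes stop marking HIF1A for VHL-dependent degradation. HIF1A with its partner ARNT then binds RCGTG motifs (R stands for A or G) and raises genes for glucose uptake, glycolysis, lactate production, angiogenesis and collagen hydroxylation. Neural progenitors are known for high glycolysis, and neurons for a different set of isozymes, with ENO2 known as neuron-specific enolase.

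Array-wide checks were as follows. Mean raw signal was between 449 and 598 intensity units per array, and 12518 to 13602 of 25662 probes were detected. Prmt5 was lower on the arrays labelled as depleted, with a log2 difference of -2.70 (SE 0.20, adjusted p = 1.11e-06), although the position of its probe relative to the deleted part was not determined. The first principal component held 73.8% of the variance and separated the genotypes, and the second held 10.7% and set control 4 and Prmt5-depleted 1 and 3 apart from the other 5 arrays. Of 11 neural progenitor markers, 7 were kept (Nes, Vim, Fabp7, Slc1a3, Sox2, Hes1 and Hes5), while Pax6 and Msi1 were not detected on any array. Hes5 (-3.14), Hes1 (-1.40) and Sox2 (-1.21) were lower and Nes (0.40) and Vim (0.54) higher in depleted cells, and the summed signal of the list was 32236 to 36163 on control and 31643 to 35119 on depleted arrays. Of 8 neuronal markers kept, 7 were higher in depleted cells, against 24.0% of all genes tested. The remaining marker, Tubb3, did not pass the test (-0.18, adjusted p = 0.273) and was detected on 2 control and 2 depleted arrays. The summed linear signal of all 10 was 7526 to 8391 on control and 21929 to 24364 on depleted arrays, with Snap25 and Nefl detected on none. All 5 oligodendrocyte precursor markers on the array were lower, against 24.5% of all genes tested, with sums of 35058 to 39219 on control and 22896 to 27390 on depleted arrays. Of these, Pdgfra and Gpr17 were detected on 4 control and 0 depleted arrays. They passed the filter only through the control arrays, so they had to be lower. Olig1, with the highest signal in the sum, had a log2 difference of -0.48. Of the endothelial markers, Pecam1, Cdh5, Tek and Tie1 were not detected on any array, and Esam, the 1 marker tested, was higher (1.08, adjusted p = 0.00578). Esam was detected on 2 control and 4 depleted arrays, so its depleted arrays alone met the filter. Its genotypes overlapped, with 5.72 on control 1 and 5.64 on Prmt5-depleted 1. The endothelial sum was 192 to 228 on control and 236 to 336 on depleted arrays. The erythroid marker Hba-a1 was detected on 0 control and 4 depleted arrays, and so had to be higher. Hbb-bt did not pass the test (0.22, adjusted p = 0.254), and Hbb-b2 and Alas2 were detected on no array. The erythroid sum was 97.5 to 131 against 286 to 341. The summed signal of pericyte and mesenchymal markers was 370 to 486 on control and 705 to 1081 on depleted arrays. Of the 3 tested, Dcn (2.61) and Lum (2.24) were higher and Cspg4 (-1.27) was lower. Lum was detected on 0 control and 4 depleted arrays, and so had to be higher. Pdgfrb and Col1a1 were detected on no array. In RNA of whole cultures, fewer cells of a type and less RNA per cell cannot be told apart, and the part of these marker shifts in the differences below was not tested.

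Across the set, 17 of the 29 genes tested were lower in Prmt5-depleted cells, 4 were higher and 8 did not pass the test. Over all 9001 genes tested, 24.5% were lower, 24.0% were higher and 48.6% were called in either direction. The 4 control and 4 depleted arrays did not overlap in 18 of the 29 genes, against 44.8% of all genes. At probe level 20 of the 40 kept probes were lower and 8 higher, with 46.7% of all 13196 kept probes called. The members' shares are read no further, as the list was drawn up knowing this contrast. Values below are normalized log2 signals, listed for arrays 1 to 4 of each genotype, and differences are depleted minus control on the log2 scale. Levels of different probes are not comparable with each other.

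Along glycolysis, isozymes moved in opposite directions at the hexokinase and phosphofructokinase steps, while the aldolases Aldoa (-0.42) and Aldoc (-0.38) had differences of the same sign. Of the 10 genes tested from Aldoa onwards, 5 were lower, 1 was higher and 4 did not pass the test. Hk2, the inducible hexokinase, fell 5.07-fold and Pfkl, the liver-type phosphofructokinase, fell 4.29-fold. Pfkp, the platelet-type phosphofructokinase that is also expressed in brain, rose 3.39-fold, and Eno2 rose 4.84-fold. Of the 17 glycolysis genes tested, 8 were lower, 4 were higher and 5 did not pass the test. Their median log2 difference was -0.38, against -0.04 over all genes, of which 24.5% were lower and 24.0% higher.

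Glucose uptake was represented by 2 transporters. Slc2a1, which encodes GLUT1, read 11.41, 11.53, 11.57 and 11.67 on control arrays and 9.80, 10.29, 9.78 and 10.41 on depleted arrays. The genotypes did not overlap, and Prmt5-depleted 1 and 3 were the lowest. The log2 difference was -1.47 (SE 0.16, adjusted p = 1.80e-05), a 2.78-fold fall. Slc2a3, which encodes the neuronal transporter GLUT3, read 9.87, 10.22, 10.23 and 10.58 in control and 9.89, 10.20, 10.00 and 10.49 in depleted cells. These ranges lay on top of each other, and the log2 difference was -0.08 (SE 0.17, adjusted p = 0.731). The direction of this small difference turned to 0.04 without control 4.

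Hexokinase phosphorylates glucose on entry. Hk2 read 11.71, 11.86, 11.73 and 11.63 on control arrays and 9.34, 9.43, 9.09 and 9.70 on depleted arrays, a difference of -2.34 (SE 0.14, adjusted p = 2.58e-07). Hk1, the constitutive hexokinase and the main form of adult brain, read 7.06, 6.99, 7.07 and 7.13 in control and 7.46, 7.65, 7.61 and 7.90 in depleted cells. Each depleted array lay above each control array for Hk1 and below each control array for Hk2. The Hk1 difference was 0.59 (SE 0.12, adjusted p = 0.0016), or 1.51-fold.

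Phosphofructokinase catalyses the committed step, and its 3 genes did not move together. Pfkl at its bright probe ILMN_1236539 read 11.59, 11.59, 11.69 and 11.84 in control and 9.66, 9.33, 9.67 and 9.66 in depleted cells, a difference of -2.10 (SE 0.12, adjusted p = 2.38e-07). Its dim probe ILMN_2871325 had overlapping genotypes and a difference of -0.31 (adjusted p = 0.254), and with both probes averaged the gene's difference was -1.21 (adjusted p = 4.10e-05). Pfkp read 7.71, 8.24, 8.58 and 8.48 in control and 9.92, 10.01, 10.12 and 10.00 in depleted cells, so that the control arrays spread more widely (SD 0.39) than the depleted ones (SD 0.08). The difference was 1.76 (SE 0.17, adjusted p = 9.05e-06), and a second kept probe, ILMN_2673233, gave 1.38. Another Pfkp probe, ILMN_2807702, was detected on no array. Pfkm, the muscle-type gene, read 10.51, 10.55, 10.76 and 10.58 in control and 11.13, 11.08, 11.15 and 11.04 in depleted cells. Its difference was 0.50 (SE 0.11, adjusted p = 0.00221), and its other probes gave 0.65 and 0.47, all without overlap of the genotypes.

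The middle of the pathway shifted less. Aldoa, the main aldolase, read 11.37, 11.63, 11.85 and 11.88 in control and 11.39, 11.12, 11.32 and 11.22 in depleted cells. Control 1 lay within the depleted range, and the difference of -0.42 (SE 0.14, adjusted p = 0.0238) was no longer called without control 3, control 4, depleted 2 or depleted 4 (adjusted p = 0.0712, 0.0578, 0.063 and 0.0518) or with a replicate block (adjusted p = 0.0505). Aldoc, the brain aldolase, had a difference of -0.38 (SE 0.16, adjusted p = 0.0689), with 11.34 to 12.15 in control and 11.28 to 11.43 in depleted cells. That difference passed the threshold under 5 of 17 alternative settings, among them without control 1 (adjusted p = 0.018) and without background subtraction (adjusted p = 0.0448). Tpi1, triose phosphate isomerase, read 13.19, 13.59, 13.62 and 13.80 in control and 13.14, 12.99, 13.28 and 12.85 in depleted cells at its brightest probe, a difference of -0.49 (SE 0.15, adjusted p = 0.0189). Its 3 probes disagreed, since ILMN_2932359 gave -0.47 (adjusted p = 0.0668) and the dimmer ILMN_1231447 gave 0.65 (adjusted p = 0.011), and with the probes averaged Tpi1 was not called (-0.10, adjusted p = 0.646). The Tpi1 call was also lost without depleted 4 (adjusted p = 0.0558).

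Gapdh, often used as a reference gene, read 14.06, 14.23, 14.13 and 14.22 in control and 14.13, 13.96, 14.06 and 13.95 in depleted cells, and the genotypes overlapped. The difference was -0.14 (SE 0.11, adjusted p = 0.312) at this probe and -0.24 at the second one. Under median scaling of the arrays in place of quantile normalization it was -0.40 (adjusted p = 0.0444). Pgk1, phosphoglycerate kinase, was dim at its only probe, with 5.53, 5.84, 6.50 and 6.49 in control and 5.86, 5.73, 5.89 and 5.44 in depleted cells. Controls 1 and 2 lay within the depleted range, and the difference of -0.36 (SE 0.21, adjusted p = 0.183) was called without control 1 (-0.55, adjusted p = 0.0349). Pgam1, phosphoglycerate mutase, read 10.01, 10.14, 10.46 and 10.46 against 9.93, 9.71, 9.88 and 9.05, a difference of -0.63 (SE 0.19, adjusted p = 0.0197) that was not called without control 3 (adjusted p = 0.0554). Several of these enzymes have near-identical pseudogene copies in the mouse genome, and cross-hybridization of their probes was not examined here.

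The final steps combined a steep rise with smaller falls. Eno2 read 7.83, 8.26, 7.97 and 8.02 in control and 10.29, 10.04, 10.31 and 10.54 in depleted cells, a difference of 2.28 (SE 0.14, adjusted p = 2.88e-07) beside the higher neuronal markers described above. Pkm, pyruvate kinase, read 12.98, 13.24, 13.24 and 13.17 in control and 12.49, 12.55, 12.50 and 12.55 in depleted cells. The difference of -0.63 (SE 0.11, adjusted p = 0.000485) concerns the gene as a whole, since the probe's place among the alternative exons of Pkm was not determined. Ldha, which reduces pyruvate to lactate, read 13.33, 13.34, 13.29 and 13.41 against 12.67, 12.50, 12.66 and 12.66, a 1.65-fold fall (difference -0.72, SE 0.10, adjusted p = 0.000141). Pkm and Ldha had no overlap and small spreads in both genotypes. Slc16a3, the lactate exporter MCT4, was near background, detected on 3 of 4 arrays of each genotype at 1 of its 3 probes, with a difference of 0.06 (SE 0.21, adjusted p = 0.834) whose sign changed between settings.

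**Figure D1:**
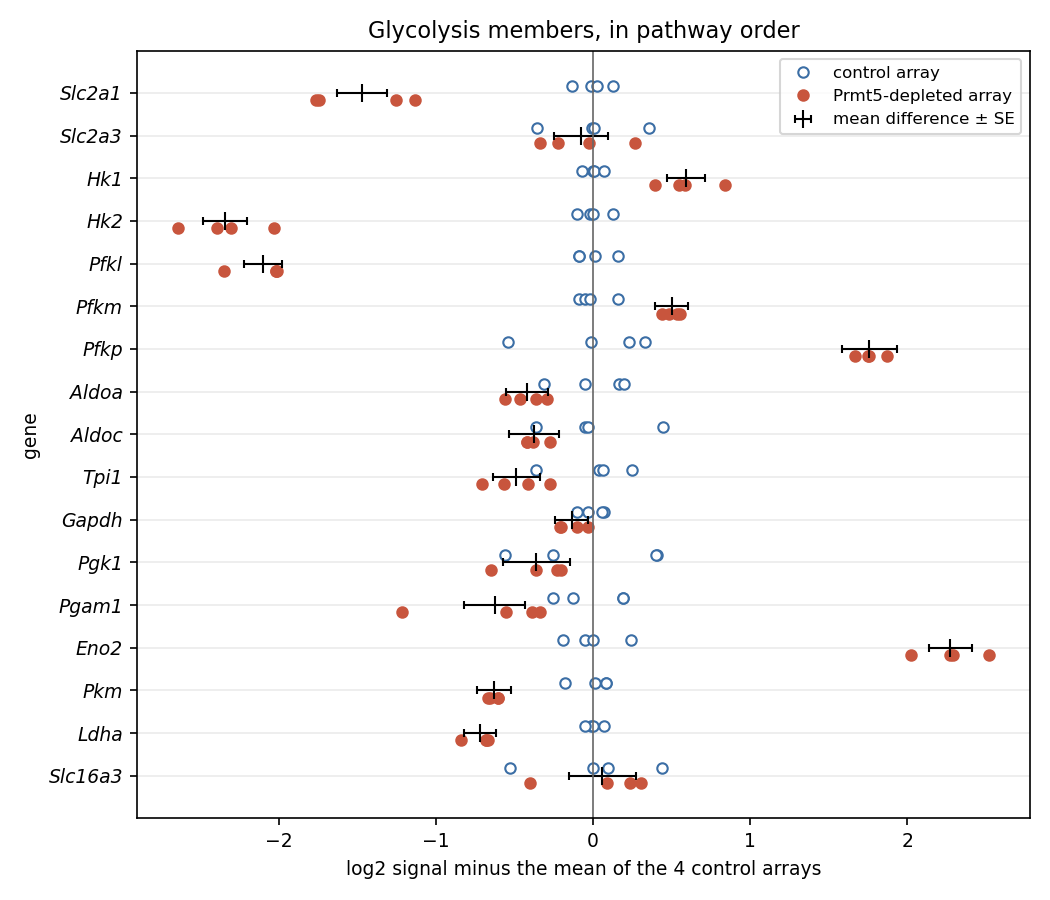
Each point is 1 array's normalized log2 signal minus the mean of the 4 control arrays (x axis), for the 17 glycolysis genes tested, from uptake at the top to lactate release at the bottom; open points are control arrays, filled points Prmt5-depleted arrays, and black bars the mean difference ± SE. Hk2, Pfkl and Slc2a1 lie far to the left and Eno2 and Pfkp far to the right, at differences of -2.34, -2.10, -1.47, 2.28 and 1.76, while Aldoa to Pgam1 lie between -0.63 and -0.14.

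Promoters are shown for the 4 glycolysis genes with the steepest changes, because they give the letters that HIF1A with ARNT is known to read. RefSeq windows of build GRCm38.p6 hold the 250 bases before the annotated start, 5′ to 3′ on the gene's strand. Capitals mark ACGTG or GCGTG on either strand, which read CACGT or CACGC when they lie on the other strand.
Hk2, chr6:82774455-82774704, minus strand: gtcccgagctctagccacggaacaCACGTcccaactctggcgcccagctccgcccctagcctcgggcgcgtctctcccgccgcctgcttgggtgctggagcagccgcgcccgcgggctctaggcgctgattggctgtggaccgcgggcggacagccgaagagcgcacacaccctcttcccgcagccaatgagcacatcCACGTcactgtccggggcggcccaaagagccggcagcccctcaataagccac
Pfkl, chr10:78009808-78010057, minus strand: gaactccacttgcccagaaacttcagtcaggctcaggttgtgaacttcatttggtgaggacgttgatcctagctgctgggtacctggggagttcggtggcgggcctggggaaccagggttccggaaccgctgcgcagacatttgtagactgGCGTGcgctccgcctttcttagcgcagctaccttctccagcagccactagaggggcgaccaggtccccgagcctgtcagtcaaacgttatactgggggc
Pfkp, chr13:6648772-6649021, minus strand: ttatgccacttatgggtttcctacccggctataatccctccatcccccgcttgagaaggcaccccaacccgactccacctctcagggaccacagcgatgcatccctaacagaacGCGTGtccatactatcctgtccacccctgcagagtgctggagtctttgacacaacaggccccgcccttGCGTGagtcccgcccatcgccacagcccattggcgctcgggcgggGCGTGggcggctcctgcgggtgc
Eno2, chr6:124769674-124769923, minus strand: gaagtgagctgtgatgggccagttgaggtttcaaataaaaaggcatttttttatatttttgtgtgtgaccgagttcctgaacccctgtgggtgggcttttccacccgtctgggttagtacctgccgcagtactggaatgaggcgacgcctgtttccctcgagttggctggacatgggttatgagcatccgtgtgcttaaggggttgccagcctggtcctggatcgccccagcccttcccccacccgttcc
In the windows shown, Hk2 held 2 matches, Pfkl 1, Pfkp 3 and Eno2 0. So few windows cannot relate matches to direction, and bases further upstream were not searched. A match is a description of the letters, and binding was not measured.

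Regulators and targets of the hypoxia response were mostly lower in Prmt5-depleted cells. Of the 11 other hypoxia genes tested, 8 fell and 0 rose, while 3 were not called. Over all genes, 24.5% were lower and 24.0% higher. The median log2 difference of the 11 was -1.34, against -0.04 over all genes. Pdk1 fell as well. Mgarp showed the steepest fall of the set, 14.8-fold from the fitted values and 13.1-fold when depleted arrays that did not detect it are set to the detection floor, followed among these genes by Vegfa at 4.35-fold, Pdk1 at 4.30-fold, Egln3 at 4.14-fold and P4ha1 at 4.05-fold. Hif1a itself did not pass the test. Without control 4 Ndrg1 rose, which made 1 higher.

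The regulator Hif1a, the oxygen-labile subunit of the factor, read 8.24, 7.99, 7.63 and 7.69 in control and 7.73, 7.79, 7.71 and 7.49 in depleted cells. The ranges overlapped, and the difference was -0.21 (SE 0.15, adjusted p = 0.272). HIF1A is regulated mainly as a protein, which was not measured here. Of the prolyl hydroxylase genes, Egln1 and Egln3 were lower, while Egln2, outside the set, overlapped between genotypes at 6.64 to 7.44 in control and 7.08 to 7.22 in depleted cells (difference 0.21, SE 0.16, adjusted p = 0.311). Egln1, which encodes PHD2, read 7.72, 7.62, 7.38 and 8.18 in control and 6.95, 6.85, 6.99 and 6.44 in depleted cells, and all 3 of its probes were lower (-0.92, -0.82 and -0.73). Egln3, which encodes PHD3 and is itself a HIF target, read 10.34, 10.19, 10.42 and 11.07 against 8.43, 8.46, 8.78 and 8.15, a difference of -2.05 (SE 0.20, adjusted p = 6.70e-06). Its other probe, ILMN_2782101, was detected on no array (-0.16). Control 4 was the highest array for both Egln1 and Egln3 at the probes listed.

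Mitochondrial targets followed. Pdk1, the kinase that shuts off pyruvate dehydrogenase, read 8.27, 8.89, 8.82 and 9.64 in control and 6.93, 6.69, 7.01 and 6.56 in depleted cells, a difference of -2.10 (SE 0.24, adjusted p = 2.56e-05). Mgarp, a mitochondrial protein also called HUMMR that links HIF1A to mitochondrial transport in neurons, read 8.30, 8.56, 8.95 and 9.78 in control and 4.99, 5.24, 4.86 and 4.95 in depleted cells. Only 1 of the 4 depleted arrays detected Mgarp, and it passed the filter through its control arrays. Its difference was -3.88 (SE 0.26, adjusted p = 5.32e-07), and the floor used above is the lowest detected signal of each array. Without background subtraction the Mgarp difference was -2.60. Bnip3l, a mitophagy receptor, read 10.77, 10.96, 10.80 and 11.55 against 11.01, 10.82, 10.99 and 10.92, with a difference of -0.08 (SE 0.17, adjusted p = 0.703) that became 0.09 without control 4. Its paralogue Bnip3 was not detected on any of the 8 arrays.

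Secreted and matrix-related targets fell too. Vegfa, the vascular endothelial growth factor, read 11.20, 12.55, 12.64 and 11.71 in control and 9.55, 10.32, 9.54 and 10.20 in depleted cells. Every depleted array was below every control array, with controls 2 and 3 above controls 1 and 4 and Prmt5-depleted 1 and 3 below 2 and 4. The difference was -2.12 (SE 0.31, adjusted p = 0.000158), and a second probe, ILMN_3121255, gave -2.14. Another Vegfa probe, ILMN_3045723, was detected on no array (-0.03). Adm, the precursor of the vasodilator adrenomedullin, read 6.27, 7.70, 7.99 and 7.92 against 5.35, 6.23, 6.07 and 5.87. Control 1 was only just above the highest depleted array, and the difference of -1.59 (SE 0.34, adjusted p = 0.00222) was -1.03 without background subtraction. P4ha1 and P4ha2 encode collagen prolyl hydroxylase subunits. P4ha1 read 7.12, 8.13, 7.91 and 7.26 in control and 5.59, 5.75, 4.92 and 6.09 in depleted cells, where 3 of 4 arrays detected it, a difference of -2.02 (SE 0.27, adjusted p = 8.50e-05). P4ha2 read 6.40, 6.12, 6.82 and 6.94 against 5.05, 5.05, 5.32 and 5.51, detected on 2 of 4 depleted arrays, a difference of -1.34 (SE 0.19, adjusted p = 0.000115). These became -1.25 and -0.69 without background subtraction, and both calls held.

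The stress-inducible members depended on single control arrays. Ddit4, an mTOR inhibitor also known as REDD1 and induced by p53 as well as by hypoxia, read 11.17, 12.73, 13.13 and 12.14 in control and 11.27, 11.21, 11.29 and 11.23 in depleted cells. Control 1 lay just below the depleted arrays and the other controls above them, and the control SD was 0.85 against 0.04. The difference was -1.04 (SE 0.33, adjusted p = 0.02), and it was not called without control 2 or control 3 (adjusted p = 0.0604 and 0.0524), without the detection filter (adjusted p = 0.0647) or with a trended, robust variance (adjusted p = 0.0737). Ndrg1, a stress-induced gene that is also high in myelinating cells, was the exception in direction. It read 7.05, 7.02, 7.46 and 8.96 in control and 8.49, 8.50, 8.35 and 8.22 in depleted cells, so that control 4 exceeded all other arrays and controls 1 to 3 lay below all depleted arrays. The difference was 0.77 (SE 0.35, adjusted p = 0.0915) with all arrays and 1.20 (adjusted p = 6.77e-05) without control 4.

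**Figure D2:**
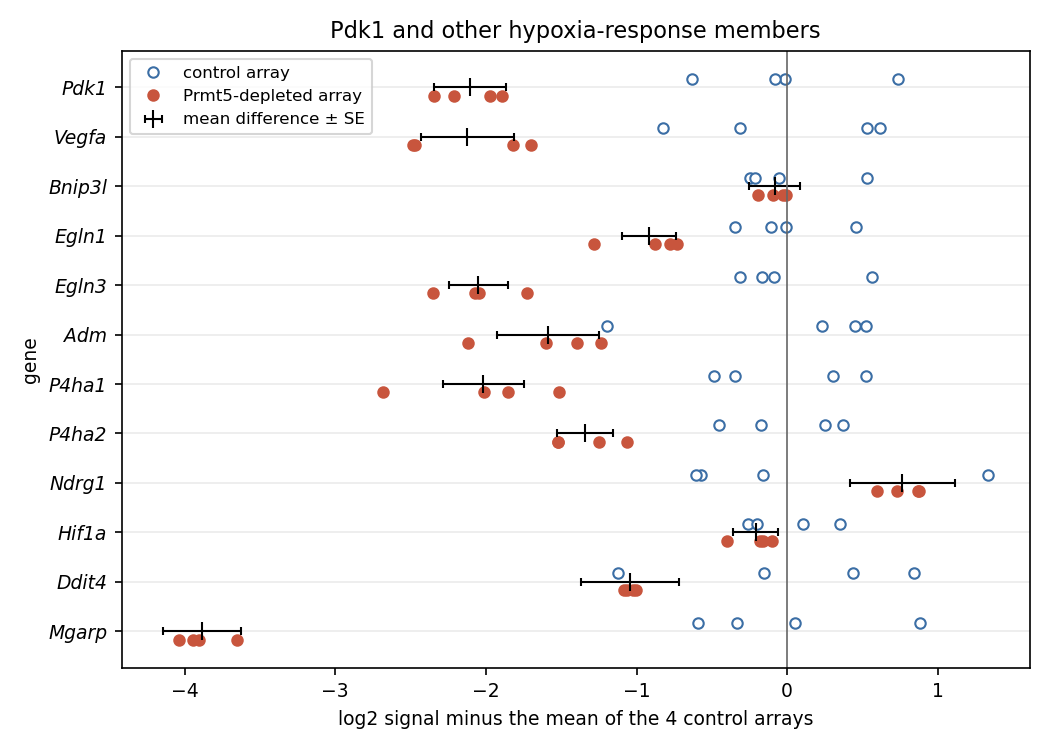
Each point is 1 array's normalized log2 signal minus the mean of the 4 control arrays (x axis), for Pdk1 and the 11 other hypoxia genes tested; open points are control arrays, filled points Prmt5-depleted arrays, and black bars the mean difference ± SE. Mgarp lies farthest left at -3.88, Hif1a and Bnip3l lie near 0, and the open points are spread more widely than the filled ones.

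The control arrays differed among themselves more than the depleted arrays in this group. The SD over control arrays exceeded that over depleted arrays in all 11 other hypoxia genes tested, against 54.1% of all genes, and the median SD was 0.49 in control and 0.23 in depleted cells (0.20 and 0.18 over all genes). For the glycolysis genes this was so in 9 of 17. Differences between control arrays did not follow 1 order. Controls 2 and 3 both exceeded controls 1 and 4 in Vegfa, P4ha1 and Ddit4, that is in 3 of 11 against 18.4% of all genes. Control 4 was the highest control in 6 of 11, Mgarp, Egln1 and Egln3 among them, against 32.3% of all genes, and control 1 was the lowest in 6 of 11, against 28%. This was not particular to the hypoxia genes. Among the 17 glycolysis genes control 4 was the highest control in 10 and control 1 the lowest in 13. Over the 6 other pathway lists given below, control 1 was the lowest control in 0% to 100% of the genes tested. The median deviation of the 11 genes from their control means was -0.48, -0.06, 0.05 and 0.45 on controls 1 to 4, and these arrays had mean raw signals of 449, 543, 544 and 598. On the depleted arrays the medians were -1.52, -1.24, -1.25 and -1.28, at mean raw signals of 558, 573, 512 and 472, which lie within the control range. The part of raw signal in the spread between controls was not tested.

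**Figure D3:**
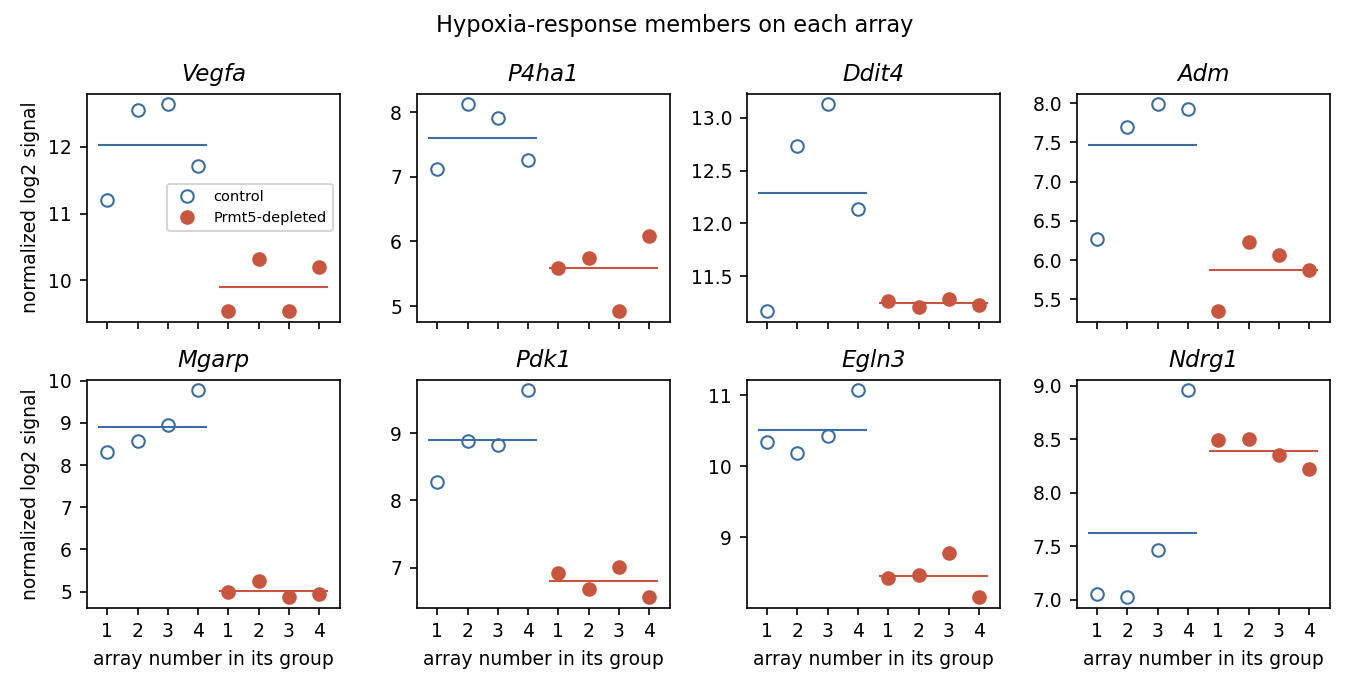
Normalized log2 signal (y axis, a different range in each panel) of 8 hypoxia-response genes on arrays 1 to 4 of each genotype (x axis); open points are control arrays, filled points Prmt5-depleted arrays, and lines the group means. Controls 2 and 3 are the highest for Vegfa, P4ha1 and Ddit4, control 4 is the highest for Mgarp, Pdk1, Egln3 and Ndrg1, and control 1 reads 11.17 for Ddit4, just below the depleted arrays.

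Windows before the start of 2 hypoxia genes are shown in the same form, Mgarp as the steepest fall and P4ha1 as a steep fall with 3 matches.
Mgarp, chr3:51396548-51396797, minus strand: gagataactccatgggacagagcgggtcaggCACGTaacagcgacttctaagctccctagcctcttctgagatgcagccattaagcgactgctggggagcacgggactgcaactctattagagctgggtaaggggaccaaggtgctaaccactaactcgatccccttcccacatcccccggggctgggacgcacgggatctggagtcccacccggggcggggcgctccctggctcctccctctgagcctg
P4ha1, chr10:59323046-59323295, plus strand: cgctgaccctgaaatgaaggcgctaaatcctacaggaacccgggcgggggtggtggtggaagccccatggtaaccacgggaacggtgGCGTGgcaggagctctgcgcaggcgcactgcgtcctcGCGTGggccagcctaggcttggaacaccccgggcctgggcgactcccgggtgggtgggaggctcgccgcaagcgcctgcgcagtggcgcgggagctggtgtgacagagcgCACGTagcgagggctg
The match nearest to the start was 214 bases before it in Mgarp and 11 bases before it in P4ha1. Vegfa, Pdk1 and Egln3, which fell slightly more than P4ha1, held fewer matches. Their windows had 2 and 0 in Vegfa, 1 and 0 in Pdk1, and 1 in Egln3. The 2 matches of Vegfa lay in chr17:46025164-46025413 on the minus strand, downstream of its other annotated start. The window before that upstream start, chr17:46032378-46032627, held 0. Vegfa is counted below as holding a match only through the downstream window, and whether that window acts as a promoter was not examined. Over the set, 33 of 36 genes had a window in the table, and 30 of them (90.9%) held ACGTG or GCGTG on either strand in at least 1 window. The share was 62.4% of the 7374 genes tested on the arrays that had a window, and 41.5% of all 27025 genes in the table. Matches were present in 16 of 17 members called lower and in 3 of 4 called higher. Median GC content was 61.6% in the members' windows and 60.0% in those of the tested genes. The E-box CACGTG, which contains ACGTG and is read by other factors as well, was present in 5 of the 33, against 10.1% of the tested genes. No factor binding was measured, and a difference in these shares was not tested.

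Other genes of the same pathways, from 6 lists outside the 36, are given beside the set. The 7 pentose phosphate genes tested had a median log2 difference of -0.54. Of these, 5 were lower and 0 higher, against 24.5% and 24.0% of all genes. Those lower included Prps1, which makes phosphoribosyl pyrophosphate (-0.54, adjusted p = 0.00236), the lactonase Pgls (-0.62, adjusted p = 0.00256) and the transketolase Tkt (-0.63, adjusted p = 0.00389). Tkt is uncertain, as its difference was 0.20 (adjusted p = 0.175) with all kept probes averaged. Of 23 tested genes of pyruvate dehydrogenase and the citric acid cycle, 7 were higher (30.4%, against 24.0% of all genes), 2 were lower and 14 did not pass, with a median of 0.25. Under median scaling 4 were higher, and with the second component as a covariate 4 were lower. Pdp1, the phosphatase that reactivates pyruvate dehydrogenase and so opposes Pdk1, read 5.51, 5.98, 5.56 and 6.38 in control and 7.78, 7.06, 7.47 and 7.42 in depleted cells, a 2.98-fold rise (difference 1.57, adjusted p = 7.50e-05) that was 0.98 on the log2 scale without background subtraction. Ogdh, a subunit of the 2-oxoglutarate dehydrogenase complex, rose 1.65-fold (adjusted p = 0.000413). Pdk4, another pyruvate dehydrogenase kinase, was not well above background on any control array and passed the filter only through its 4 depleted arrays, so it had to differ. It read at least 1.23-fold higher there and is counted among the 7. Suclg2, a succinyl-CoA ligase subunit, fell 1.78-fold and Pdp2, the second phosphatase, fell 1.37-fold.

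Isozymes and regulators of glycolysis outside the set had a median of 0.28, with 4 of 10 tested genes higher (40%, against 24.0% of all genes) and 1 lower. The median was 0.13 without control 2 and 0.42 without control 4, and 2 genes were lower without control 4 or depleted 4. Without the detection filter 2 of 23 were higher and 2 lower. Pfkfb4 and Pfkfb2, which set the level of the phosphofructokinase activator fructose 2,6-bisphosphate, rose 1.73-fold (adjusted p = 7.39e-05) and 1.64-fold (adjusted p = 0.0224), the latter not called without control 4, depleted 2 or depleted 4 (adjusted p = 0.0535, 0.0682 and 0.0548). Eno3, the muscle enolase, rose 1.62-fold (adjusted p = 0.0026), and the ADP-dependent glucokinase Adpgk fell 1.55-fold (adjusted p = 0.00791). Among 7 tested genes of glycogen and gluconeogenesis, 3 rose (42.9%, against 24.0% of all genes) and 2 fell (28.6%, against 24.5%). The glycogen phosphorylase of brain, Pygb, rose 1.89-fold (adjusted p = 0.000386) and Pgm2l1, a sugar phosphomutase relative that makes glucose 1,6-bisphosphate, rose 1.84-fold (adjusted p = 0.000188). The glycogen synthase Gys1 fell 1.60-fold (adjusted p = 0.0117) and the glucose 6-phosphatase subunit G6pc3 fell 1.53-fold (adjusted p = 0.00496). Pygl, the liver phosphorylase, rose 1.61-fold (adjusted p = 0.0222), a call lost in 5 of the 8 fits that left out 1 array, without the detection filter and with its kept probes averaged (0.32, adjusted p = 0.153). Pygl was detected on 2 control and 4 depleted arrays, so its depleted arrays alone met the filter. With undetected arrays set to the detection floor its rise was 1.53-fold.

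Of 14 tested oxygen-sensing genes outside the set, 3 were higher and 3 lower, 21.4% each against 24.0% and 24.5% of all genes, with a median of 0.15. Without control 4 the number higher was 6 and the median 0.23, and without control 1 or control 3 the median was 0.057 or 0.075. Cited2, which competes with HIF1A for the coactivators p300 and CBP, read 5.69, 6.24, 5.71 and 5.78 in control and 6.96, 6.68, 7.01 and 7.25 in depleted cells, a 2.17-fold rise (adjusted p = 0.000142). Eloc and Elob, elongin subunits of the VHL ubiquitin ligase, rose 1.84-fold (adjusted p = 0.000205) and 1.35-fold (adjusted p = 0.00595), the latter not called under median scaling (adjusted p = 0.139). Arnt, the partner of HIF1A, fell 1.57-fold (adjusted p = 0.00305) and Siah2, a ubiquitin ligase for prolyl hydroxylases, fell 1.72-fold (adjusted p = 0.00253). Siah1b, a relative of Siah2, fell 1.54-fold (adjusted p = 0.0215), a call lost in 4 of the 8 fits that left out 1 array.

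Other known HIF targets did not move one way. Of 24 tested, 11 fell (45.8%, against 24.5% of all genes), 6 rose (25%, against 24.0%) and 7 were not called. The median was -0.20. Without depleted 4 the number that fell was 7. Stc2, a secreted glycoprotein of the stress response, read 8.48, 9.50, 9.82 and 8.59 in control and 6.30, 6.86, 6.35 and 6.86 in depleted cells, a 5.67-fold fall (adjusted p = 2.51e-05). Bhlhe40, a transcriptional repressor, read 10.61, 11.60, 11.53 and 11.08 against 9.16, 9.61, 9.25 and 9.07, a 3.82-fold fall (adjusted p = 1.86e-05). In both genes controls 2 and 3 exceeded controls 1 and 4, as in Vegfa, and this held in 12 of the 24, against 18.4% of all genes. Narf fell 2.54-fold (adjusted p = 4.97e-05). The chemokine gene Cxcl12 rose 4.70-fold (difference 2.23, adjusted p = 1.61e-05), with smaller differences of 1.51 without background subtraction and 1.56 with its kept probes averaged. Its receptor gene Cxcr4 rose 1.81-fold (adjusted p = 0.00862) and the transferrin receptor gene Tfrc rose 1.39-fold (adjusted p = 0.0109).

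**Figure D4:**
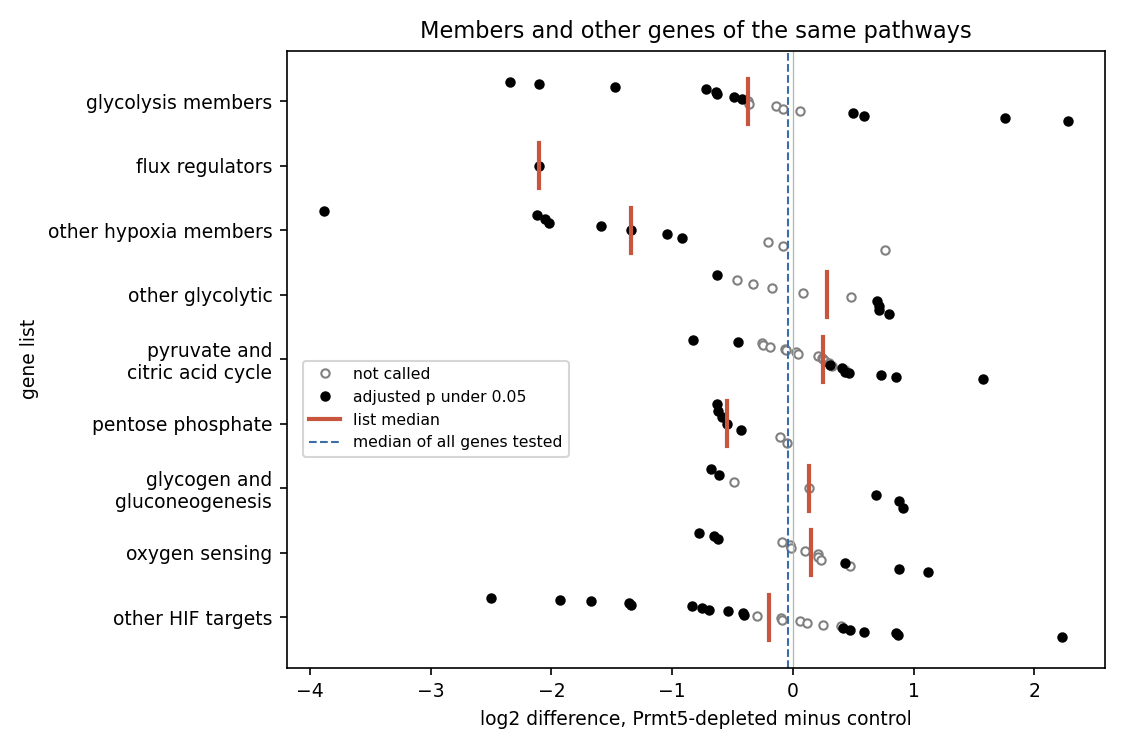
Each point is 1 tested gene at its log2 difference, Prmt5-depleted minus control (x axis), in the member groups and the 6 other lists (y axis); filled points have an adjusted p under 0.05, red bars are list medians and the dashed line is the median of all genes, -0.04. The other hypoxia members have the lowest median of the lists with more than 1 gene tested, -1.34, the pentose phosphate list is at -0.54, and the pyruvate and citric acid cycle list is at 0.25.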

How the data were processed

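Total RNA was hybridized to Illumina MouseRef-8 V2 arrays, 4 per genotype, per the labels. The authors deposited non-normalized intensity values and, beside each, a detection p-value (per the file headers); scanner software is not given in the sources used here. A second deposited table of intensity values equals the first after quantile normalization (largest gap 3.64e-12 units); it served as the alternative without background subtraction.

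Intensities were background corrected by normexp from the detection p-values with an offset of 16, quantile normalized and log2 transformed (neqc, limma 3.58.1, R 4.3.3). The offset pulls dim genes' differences towards 0, and quantile normalization hides a change shared by most genes. Of 25662 probes, 13196 were kept (detection p under 0.05 on at least 4 arrays). Probe symbols came from the platform annotation and were updated by Entrez ID (0 changed). A gene was represented by its brightest kept probe. Genotypes were compared over all 9001 genes with lmFit and eBayes, two-sided, with Benjamini-Hochberg adjustment at 0.05 and no covariates; the test was checked on simulated data. Adjusted p-values of single probes come from the same fit over all kept probes. Fold sizes are 2 to the power of the log2 difference.

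The 36 members and the 6 other pathway lists were chosen with earlier results of these data known. Named were all members, with their kept probes, Prmt5, and up to 3 called genes per direction of each other list, by smallest adjusted p. The number of arrays limits precision. Alternatives changed the offset, background, filter, probe summary, scaling and variance model, added the replicate number or the second component, or left out 1 array.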

Additional observations from a re-analysis of the deposited data

Results flagged for a closer look

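Within a genotype, 4 of the 80 groups of 4 arrays (40 kept member probes in 2 genotypes) held 1 array far from the other 3, where chance gives about 1 in 20. For Pfkl (ILMN_1236539), Prmt5-depleted 2 read 9.33 against 9.66 to 9.67 on the others, a gap of 0.978 of the whole range. For Ldha, Prmt5-depleted 2 read 12.50 against 12.66 to 12.67 (0.93 of the range). For Adm, control 1 read 6.27 against 7.70 to 7.99 (0.83 of the range). For Ndrg1 (ILMN_1250195), control 4 read 9.07 against 6.96 to 7.11 (0.928 of the range). The first 2 concern small absolute gaps in tight groups, and Pfkl and Ldha stayed called without that array. No cause was tested.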

How the results depend on the processing

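Under 17 alternative settings, 17 of the 21 called members kept their call and none of the 21 reversed. Aldoa, Tpi1, Pgam1 and Ddit4 lost their call under at least 1. Of the 8 uncalled members, 4 gained a call under at least 1, namely Aldoc, Gapdh, Pgk1 and Ndrg1. With detection required on all 8 arrays, 5 other hypoxia members were lower in place of 8, as 3 were no longer tested. Without 1 array at a time, the other hypoxia members higher numbered 0 to 1, and the glycolysis median ran from -0.52 to -0.23. Differences of uncalled genes changed sign for Slc2a3 (-0.20 to 0.039 without 1 array at a time, above 0 without control 4 or depleted 1), Bnip3l (-0.17 to 0.093, above 0 without control 4) and Slc16a3 (-0.044 with the second component as a covariate, and -0.12 to 0.21 without 1 array at a time, below 0 without control 2, depleted 2 or depleted 3); the cause was not tested. Tkt turned to 0.20 with its probes averaged. Without the filter the medians of the other glycolytic and glycogen lists were -0.026 and -0.018, over 23 and 14 genes; with detection on all arrays the latter was -0.18. Same-numbered arrays of the 2 genotypes had correlations of deviations of -0.14, 0.24, -0.16 and -0.37. Whether the numbers pair the samples is not given, and so few values cannot settle it. With a replicate block 16 members were lower and 4 higher, and among the members and named genes only Aldoa lost its call. The other pathway lists then held 21 genes higher in place of 23 and 21 lower in place of 24. The number of arrays and the dim signal of Pgk1, Slc16a3, Pfkfb3, Bnip3 and Car9 limit what can be seen.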

Other observations

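Members under the detection filter were near background. Pfkfb3, the bifunctional enzyme that raises fructose 2,6-bisphosphate, was detected on 1 of 4 control and 0 of 4 depleted arrays, with 5.17, 5.05, 5.04 and 5.60 in control and 4.96, 4.74, 4.75 and 4.69 in depleted cells. Car9, the hypoxia-induced carbonic anhydrase IX, was likewise detected on 1 control array at 1 of its 3 probes, ILMN_2874084, with 5.01, 5.11, 5.24 and 5.65 against 4.63, 4.78, 4.66 and 4.76. Control 4 was the array that read highest in both. At these probes of Pfkfb3 and Car9 every depleted array read below every control array. The genotypes overlapped at the other probes of Car9, which were detected on no array, with 4.62 to 5.03 against 4.58 to 4.80 at ILMN_2730999 and 4.51 to 4.61 against 4.47 to 4.74 at ILMN_1244145. No fold is given at these signals.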
